A study of Homo sapiens with 12 samples.

Results

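The comparison described here is the response of serum-starved LX2 cells to transforming growth factor beta, called TGFb in the labels. LX2 is an established human hepatic stellate cell line, labelled wild type. The members are 8 of the 12 libraries of the series, chosen by their labels and column names: 4 control libraries from untreated cells and 4 TGFb libraries from cells given TGFb at 5 ng/ml for 16 h. All cells had been deprived of serum for 16 h, starting 24 h after seeding, and both groups therefore lack serum. The other 4 libraries, from cells given the compound STINGX at 10 µM for 3 h ahead of TGFb, are not described here. They entered the filter on low counts, the scaling and the shared estimate of spread. Polyadenylated RNA was sequenced, and counts were available per gene and per single transcript. The labels name neither the TGFb isoform nor separate cultures for the replicates, so a p-value here reflects how far these libraries differ among themselves, which can be technical spread. One cell line grown without hepatocytes, macrophages or endothelium is also a limited model of a liver.

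Hepatic stellate cells store retinoid in the resting liver and turn into matrix-secreting myofibroblasts after injury. TGF-beta is the main cytokine known for driving that change. It binds a type II receptor, which phosphorylates a type I receptor, and the type I receptor phosphorylates SMAD2 and SMAD3. These enter the nucleus with SMAD4 and act on genes that include brakes of the pathway itself, such as SMAD7 and PMEPA1. Related ligands of the family, the bone morphogenetic proteins (BMPs), growth and differentiation factors (GDFs) and activins, use other receptor pairs and overlapping SMAD proteins.

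Library totals ran from 54035320 to 66738764 counts over the 8 libraries, higher in the control group (64151449 to 66738764) than in the TGFb group (54035320 to 63193549). The labelled cell type was checked against marker genes. Of 18 stellate markers 16 could be tested, and their summed level was 6461 to 6561 CPM (the usual count scaled by library size, here with TMM factors) in control and 10762 to 11135 CPM with TGFb. Of the 16, 6 rose and 8 fell, 87.5% against 26% of all genes tested, with a median log2 fold change of -0.46. COL1A1 made up most of the added sum. The intermediate filament gene DES and the retinol esterifying enzyme gene LRAT were at 0 in all 8 libraries, and RNA for GFAP stood at 0.618 ± 0.270 to 0.387 ± 0.263 CPM. Hepatocyte markers summed to 10.3 to 13.7 CPM in control and 8.62 to 11.4 CPM with TGFb, with ALB, APOA2, APOB, CYP3A4, FGB and TTR at 0 throughout. The 10 endothelial markers summed to 10.9 to 12.2 and 13.9 to 15.04 CPM, with CLEC4G, EMCN and LYVE1 at 0. Of 10 macrophage and leukocyte markers 5 could be tested, and 1 rose (CSF1R, given below) and 3 fell, 80% in all. The 10 markers summed to 74.1 to 82.5 CPM in control and 31.5 to 37.5 CPM with TGFb, with AIF1, CD3E and MS4A1 at 0. Most of that sum was CD68 (59.6 ± 1.87 to 24.4 ± 2.68 CPM). The 8 epithelial markers summed to 347 to 395 and 427 to 517 CPM, with CFTR at 0. What part such marker genes have in the results was not tested. In bulk RNA, fewer cells expressing a gene and less RNA per cell cannot be told apart.

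The genes that mark a TGFb response separated the groups widely. PMEPA1, which encodes a membrane protein that traps SMAD2 and SMAD3 (ENSG00000124225, chr20:57648392-57711536), stood at 14.4, 12.98, 14.1 and 13.1 CPM in the control libraries and 360.0, 411, 381 and 396 CPM in the TGFb libraries. Every TGFb library was above every control library, a log2 fold change of 4.83 ± 0.06 SE (adjusted p = 5.9e-14, edgeR quasi-likelihood test with Benjamini-Hochberg adjustment). SMAD7, an inhibitory SMAD that blocks the type I receptor (ENSG00000101665, chr18:48919853-48952052), stood at 18.0, 19.3, 18.9 and 12.8 CPM in the control libraries and 113, 107, 105 and 107 CPM in the TGFb libraries. Control replicate 4 was the lowest library and the groups did not overlap (log2 fold change 2.65 ± 0.11 SE, adjusted p = 1.7e-09). FN1, the gene of the matrix protein fibronectin (ENSG00000115414, chr2:215360440-215436073), stood at 2137, 2127, 2081 and 2061 CPM in the control libraries and 15020.1, 14939.9, 15108 and 14965 CPM in the TGFb libraries. Libraries within a group lay close together, far apart from those of the other group (log2 fold change 2.84 ± 0.02 SE, adjusted p = 5.77e-16). PMEPA1 overlaps the antisense gene NKILA, and whether strand was used in counting is not given in the sources used here, so reads of the pair cannot be told apart.

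Across the whole transcriptome the response was broad, balanced in number and mostly small in size. A gene is said to pass, rise or fall where the adjusted p of the edgeR quasi-likelihood test was under 0.05. Of 21328 genes tested 26% passed, 13.2% higher with TGFb and 12.8% lower. In 27.1% of genes all 4 libraries of one group lay beyond all 4 of the other. The median log2 fold change of all genes tested was 0.00 when rounded, and -0.07 with library size as the sole scaling. Of the genes that rose, 2085 changed by less than 1 on the log2 scale, 452 by 1 to 2, 150 by 2 to 3 and 126 by 3 or more. Of those that fell, 1971 changed by less than 1, 551 by 1 to 2, 135 by 2 to 3 and 73 by 3 or more. Genes that passed and rose at least 2-fold were 3.41% of those tested, and those that fell at least 2-fold were 3.56%. The balance of rises and falls depended on the scaling: 50.7% of the calls were rises with the TMM (trimmed mean of M-values) scaling used here, 43.2% with upper quartile scaling, 38.7% with library size alone, 38.9% on log2(FPKM + 1) and 39% on log2(FPKM + 0.1), where FPKM is a fragment count scaled by gene length and library size. Of the 5543 genes that passed, 3604 (65%) passed in the same direction under all 19 other settings tried.

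**Figure D1:**
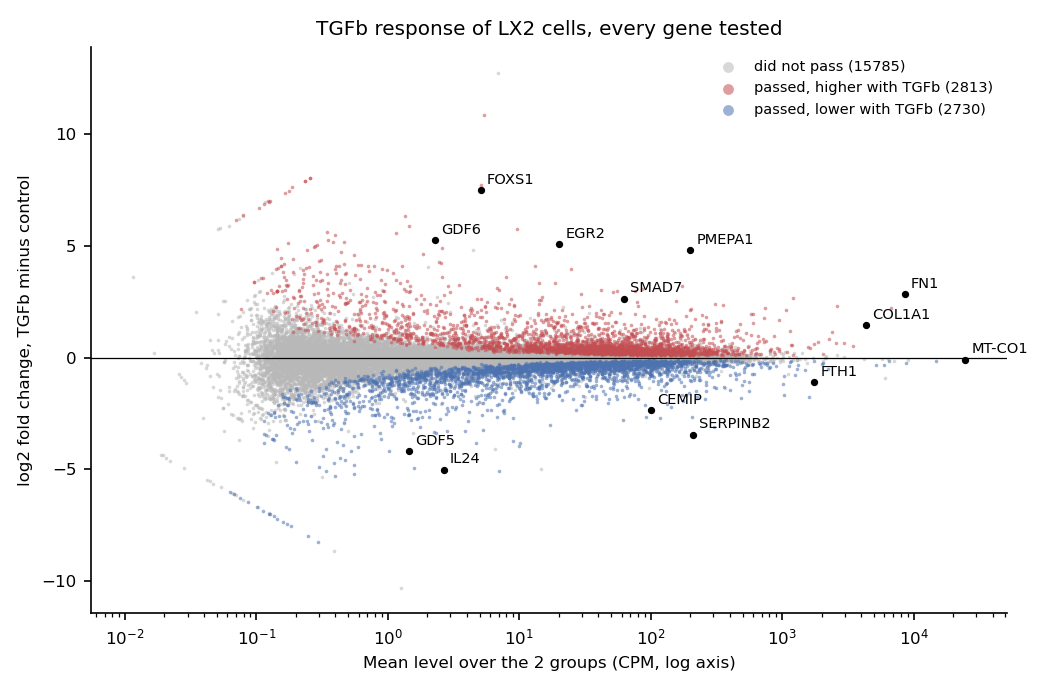
Each point is 1 of the 21328 genes tested. The x axis is the mean level over both groups in CPM (log axis), and the y axis is the log2 fold change of TGFb over control. Colours mark the 2813 genes that passed and rose and the 2730 that passed and fell. Labelled genes include FOXS1 and PMEPA1 at the top, IL24 and SERPINB2 at the bottom, and FN1 and COL1A1 at the right.

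How many genes passed followed the level of expression. Ranked by mean CPM and divided into 5 equal groups, 7.27% of genes passed in the lowest group, then 18.5%, 29.8% and 32.8%, and 41.6% in the highest. The median size of the passing changes went the other way, from 2.57 on the log2 scale in the lowest group to 0.33 in the highest. In the highest group 1072 genes rose and 702 fell. That order turned round with library size as the only scaling (815 rose and 1004 fell), and in the next highest group both that scaling (566 and 862) and upper quartile scaling (638 and 778) turned round the 755 rises and 642 falls. Genes of the middle group fell more often than they rose under every scaling tried, with 518 rises and 754 falls here. By gene class, 32.4% of 14601 protein-coding genes passed, 13.6% of 3975 long non-coding genes (264 rose and 275 fell) and 9.97% of 2057 pseudogenes. The median level of the protein-coding genes was 24.3 CPM, against 0.522 and 0.636 CPM in the other classes. By chromosome the share that passed ran from 19.3% on chromosome 16 and 19.7% on chromosome 19 to 31.8% on chromosome 4. Differences between chromosomes were not tested.

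A few genes took a large part of the summed gains. The genes that rose gained 111707 CPM in sum, of which the 8 largest gains held 31.7% and the 100 largest 59.8%. Besides FN1, the 8 largest included the gains of COL1A1, a chain of type I collagen (2307 ± 16.4 to 6367 ± 121 CPM), and TGFBI, a secreted adhesion protein named for its induction by TGF-beta (868 ± 128 to 4336 ± 58.3 CPM). Among them too were COL4A2, a basement membrane collagen chain (1482 ± 48.6 to 3296 ± 52.5 CPM), PODXL, a sialomucin of the cell surface (331 ± 4.39 to 2079 ± 18.9 CPM), COL5A1, a chain of a fibril-forming collagen (403 ± 18.2 to 1749 ± 45.5 CPM), and MYH9, a non-muscle myosin heavy chain (2275 ± 117 to 3614 ± 155 CPM). These are counts on the TMM scaling, and neither plain shares of the library nor levels per length. Summed gains and losses depend on that scaling and need not balance. Per length, in the deposited FPKM values, FN1 went from 102 ± 0.8288 to 700.1 ± 8.97 FPKM, COL1A1 from 214 ± 3.13 to 568 ± 16.2 FPKM and PODXL from 40.2 ± 0.636 to 242 ± 3.09 FPKM. COL1A1, COL4A2, COL5A1 and MYH9 overlap another annotated gene, so part of their counts is uncertain.

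The losses were spread over more genes. The genes that fell lost 62901 CPM in sum, with 17.4% in the 8 largest losses and 51.8% in the 100 largest. Among those 8 were mitochondrially encoded RNAs that changed little in proportion: MT-CO1, a subunit of cytochrome oxidase, fell by 0.09 on the log2 scale (25419 ± 179 to 23889 ± 257 CPM), MT-CO2 by 0.24, MT-ND4, a subunit of complex I, by 0.13, and the ribosomal RNA MT-RNR2 by 0.31. MT-ND4 overlaps MT-ND4L on the same strand. FTH1, the heavy chain of the iron store ferritin, fell in greater proportion, at 2664, 2580.2, 2107 and 2175 CPM in the control libraries and 1112, 1083, 1175 and 1071 CPM in the TGFb libraries. Its groups did not overlap, and the log2 fold change was -1.10 ± 0.07 SE (adjusted p = 2.13e-07, edgeR quasi-likelihood test with Benjamini-Hochberg adjustment). The glycolytic enzyme gene GAPDH fell from 5797 ± 648 to 4563 ± 507 CPM, a log2 fold change of -0.35. The other losses among the 8 were unnamed genes on the short arm of chromosome 21, ENSG00000281181 (3195, 3899, 1354 and 1444 CPM in the control libraries and 908, 1158, 347 and 495 CPM in the TGFb libraries) and ENSG00000280614 (1583 ± 822 to 497 ± 233 CPM). Within each group replicates 1 and 2 of ENSG00000281181 were higher than replicates 3 and 4, and the groups still did not overlap.

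The largest rises in proportion, among genes of at least 5 CPM in the higher group, included transcription factors, matrix genes and signalling proteins. FOXS1, a forkhead transcription factor (ENSG00000179772, chr20:31844303-31845604), stood at 0.0959, 0.124, 0 and 0 CPM in the control libraries and 9.94, 11.3, 9.53 and 9.90 CPM in the TGFb libraries. It was at 0 in 2 control libraries and above 9 CPM in all 4 TGFb libraries, and its fitted log2 fold change of 7.51 became 8.29 without control replicate 2. EGR2, a zinc finger factor, stood at 1.02, 1.07, 1.56 and 0.948 CPM in the control libraries and 43.4, 38.4, 37.7 and 37.7 CPM in the TGFb libraries. UNC5B, a netrin receptor, rose from 1.45 ± 0.273 to 24.7 ± 0.909 CPM, and EDN1, the gene of the vasoconstrictor and pro-fibrotic peptide endothelin-1, from 2.96 ± 0.626 to 46.5 ± 2.14 CPM (log2 fold changes 4.09 and 3.98). BGN, which encodes the small proteoglycan biglycan, rose from 3.31 ± 0.554 to 34.1 ± 1.97 CPM, and XYLT1, the enzyme that places the first sugar of proteoglycan chains, from 2.57 ± 0.301 to 25.9 ± 0.587 CPM. HHIP, a decoy receptor for Hedgehog ligands, rose from 0.564 ± 0.144 to 5.23 ± 0.972 CPM. ISLR2, a membrane protein with leucine-rich repeats, rose from 0.342 ± 0.145 to 18.7 ± 6.25 CPM and overlaps a gene on the other strand, as BGN and HHIP do. ZNF778, a zinc finger gene, was at 0.783, 1.31, 1.28 and 1.50 CPM in the control libraries and 21.7, 17.6, 1.82 and 17.7 CPM in the TGFb libraries: TGFb replicate 3 lay near the control libraries, and the call (adjusted p = 0.00131, edgeR quasi-likelihood test with Benjamini-Hochberg adjustment) was lost with limma-voom alone of the 19 other settings, whose adjusted p ran from 2.74e-09 to 0.0649.

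The 10 largest falls in proportion, under the same minimum, were those of the genes described next. IL24, a cytokine of the interleukin-10 family, stood at 6.51, 6.19, 4.68 and 3.23 CPM in the control libraries and 0, 0.137, 0 and 0.519 CPM in the TGFb libraries. All 4 TGFb libraries were below all 4 control libraries, and the log2 fold change of -5.01 became -6.72 without TGFb replicate 4. SERPINB2, the intracellular plasminogen activator inhibitor PAI-2, stood at 399.5, 404, 371 and 370.0 CPM in the control libraries and 34.8, 35.3, 36.7 and 35.02 CPM in the TGFb libraries. Its groups lay far apart, a log2 fold change of -3.44 ± 0.10 SE (adjusted p = 7.22e-11, edgeR quasi-likelihood test with Benjamini-Hochberg adjustment). MMP1, an interstitial collagenase, fell from 546 ± 33.2 to 63.1 ± 2.41 CPM, and PTGES, an enzyme of prostaglandin E2 synthesis, from 9.55 ± 1.18 to 1.01 ± 0.492 CPM. VCAM1, an adhesion molecule for leukocytes, fell from 30.4 ± 2.28 to 3.76 ± 0.429 CPM. PPL, which encodes the desmosomal linker periplakin, fell from 5.10 ± 0.407 to 0.525 ± 0.222 CPM, DTNA, a component of the dystrophin complex, from 8.72 ± 2.22 to 0.608 ± 0.173 CPM, and RIPOR3 from 108 ± 11.4 to 15.6 ± 2.04 CPM. EVI2B (18.6 ± 1.86 to 1.20 ± 0.320 CPM) and EVI2A (7.05 ± 3.14 to 0.727 ± 0.541 CPM) lie within an intron of NF1 and overlap one another's annotated read-through gene on the same strand, so the reads behind the pair are not independent. SERPINB2 also overlaps SERPINB10 on its own strand, IL24 overlaps FCMR and MMP1 overlaps WTAPP1 on the other.

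**Figure D2:**
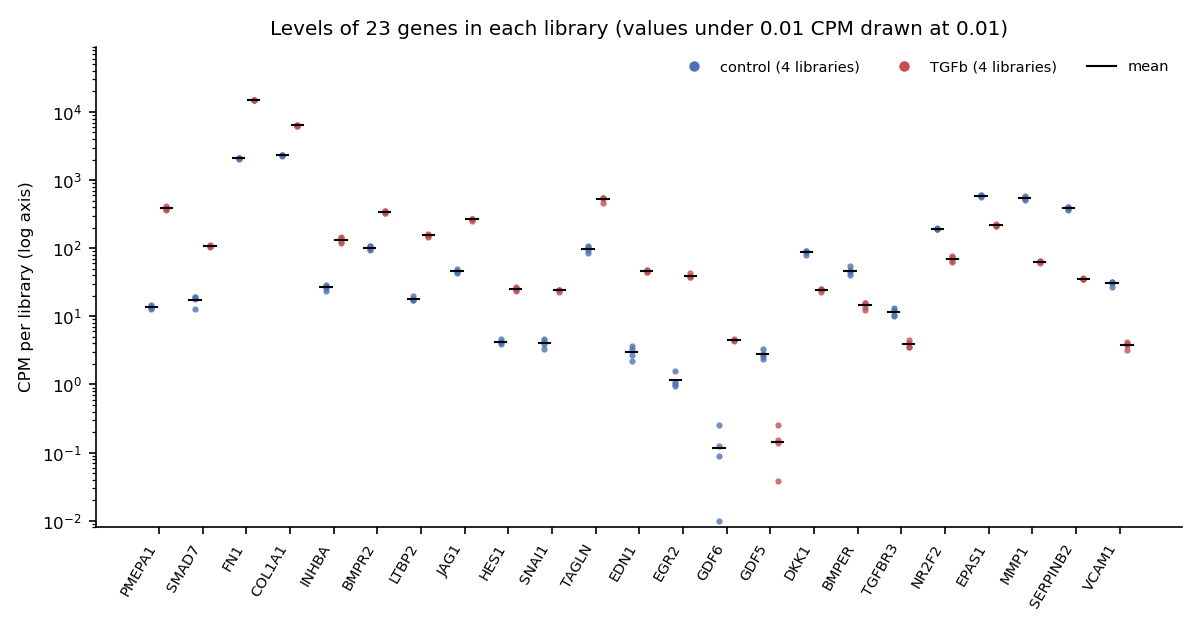
CPM of 23 genes in each of the 8 libraries, on a log axis, with control in blue, TGFb in red and a black bar at the mean of 4 libraries. No gene shown has overlapping groups, and GDF6 and GDF5 exchange places, with GDF6 under 0.3 CPM in control and over 4 CPM with TGFb.

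Within the TGF-beta family itself, ligand and receptor genes changed in both directions. Of 21 ligand genes tested 4 rose and 4 fell, 38.1% against 26% of all genes. GDF6, a ligand of the BMP branch, stood at 0.256, 0.124, 0 and 0.0889 CPM in the control libraries and 4.47, 4.30, 4.44 and 4.71 CPM in the TGFb libraries, and its log2 fold change of 5.26 became 5.95 without control replicate 1. GDF5, its close relative, went the other way at 3.28, 2.83, 2.57 and 2.33 CPM in the control libraries and 0.2501, 0.137, 0.0383 and 0.154 CPM in the TGFb libraries. Both are low in count, yet neither pair of groups overlapped (adjusted p = 1.03e-07 and 3.72e-07, edgeR quasi-likelihood test with Benjamini-Hochberg adjustment). INHBA, which encodes the subunit of activin A, stood at 26.3, 28.7, 23.6 and 27.8 CPM in the control libraries and 142, 119, 147 and 124 CPM in the TGFb libraries. GDF15, a stress-induced member, fell from 4.64 ± 0.224 to 0.980 ± 0.0837 CPM. Among 16 receptor genes 2 rose and 4 fell, 37.5% in all. BMPR2, the type II receptor for BMPs, stood at 106, 106, 96.7 and 93.5 CPM in the control libraries and 347, 352, 323 and 327 CPM in the TGFb libraries, more than 3 times as high in each TGFb library as in any control library. TGFBR2, the type II receptor for TGF-beta, fell from 182 ± 2.46 to 137 ± 2.68 CPM, and the co-receptor TGFBR3 (betaglycan) from 11.6 ± 1.58 to 3.91 ± 0.483 CPM. ENG, which encodes the co-receptor endoglin, rose from 183 ± 11.2 to 266 ± 9.67 CPM.

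Of 26 SMADs and intracellular regulators 13 rose and 3 fell, 61.5% against 26% of all genes. Their median log2 fold change was 0.38 against 0.00 for all genes. Besides PMEPA1 and SMAD7, the largest changes were rises of LDLRAD4, a relative of PMEPA1 that also binds SMAD proteins (3.92 ± 0.576 to 26.0 ± 1.72 CPM), and of ID3, an inhibitor of basic helix-loop-helix factors and a known BMP target (11.3 ± 1.92 to 35.2 ± 2.52 CPM). LDLRAD4 overlaps several non-coding genes on either strand. Of 20 latency proteins and extracellular antagonists 7 rose and 7 fell, 70% in all. LTBP2, a matrix protein of the latent TGF-beta binding family that does not itself bind latent TGF-beta, stood at 18.2, 19.6, 17.6 and 17.3 CPM in the control libraries and 153, 148, 155 and 161 CPM in the TGFb libraries. FSTL3, a secreted antagonist of activin, rose from 11.3 ± 5.83 to 56.1 ± 2.45 CPM. Among BMP antagonists BMPER was lower, at 48.5, 54.4, 40.6 and 44.7 CPM in the control libraries and 15.7, 15.5, 12.6 and 13.9 CPM in the TGFb libraries, and NOG, which encodes noggin, fell from 1.80 ± 0.287 to 0.703 ± 0.0544 CPM.

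**Figure D3:**
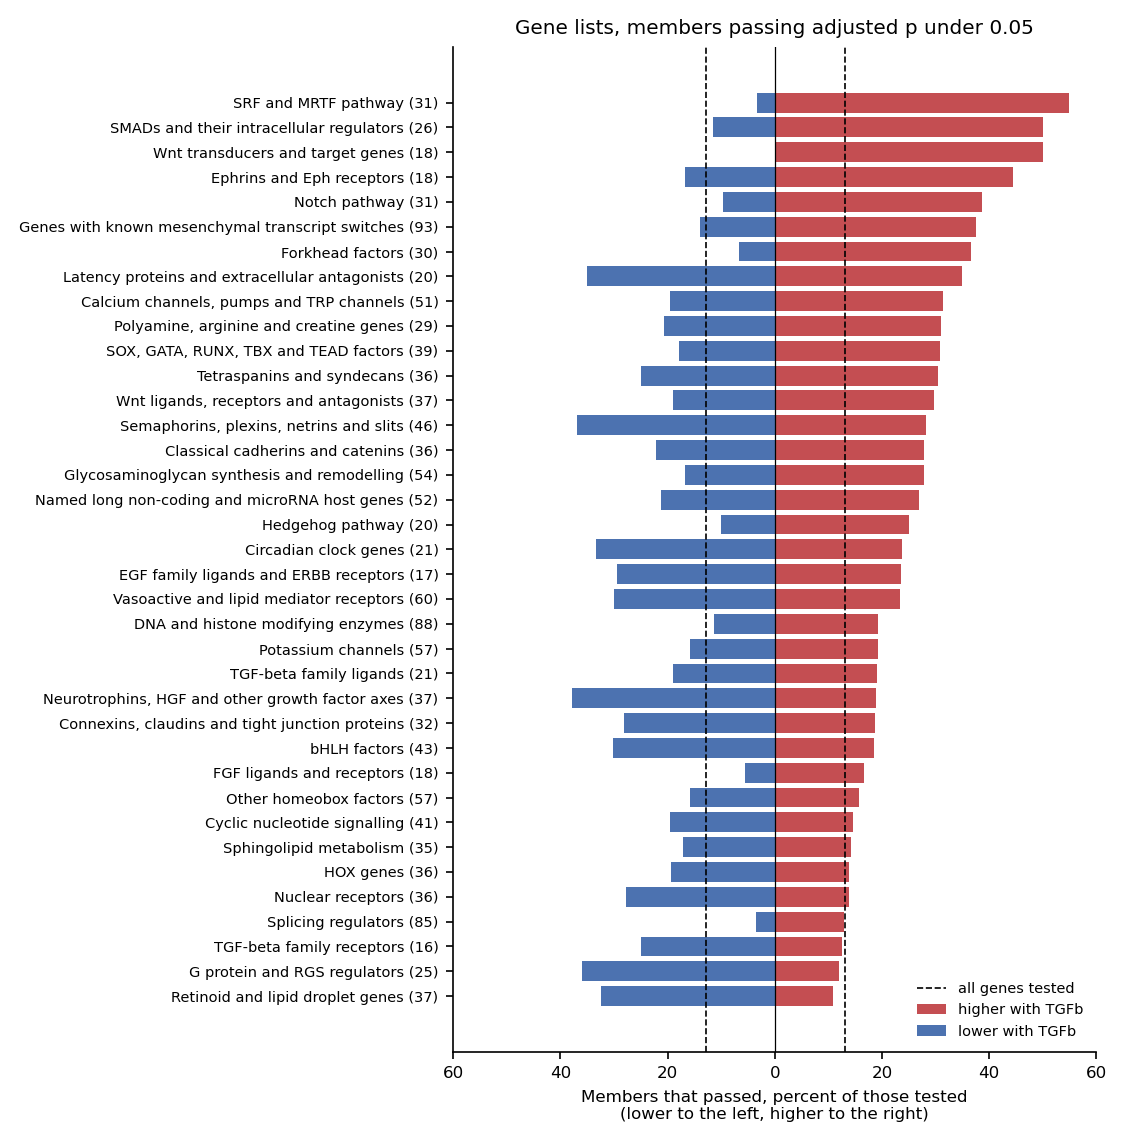
For each of 37 gene lists, the bar to the right gives the percentage of tested members that passed and rose with TGFb, and the bar to the left the percentage that passed and fell. Dashed lines mark the same percentages over all 21328 genes (13.2% and 12.8%), and the number tested follows each name. The SRF and MRTF list reaches furthest to the right, and the retinoid and lipid droplet list has the shortest bar on that side.

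Genes of the Notch and Wnt pathways moved more often up than down. Notch is a receptor cleaved on contact with ligands on neighbouring cells, and its freed part acts on genes of the HES and HEY family. Of 31 Notch pathway genes 12 rose and 3 fell, 48.4% against 26% of all genes (median 0.15). With upper quartile scaling or library size alone 9 rose and 3 fell. JAG1, a Notch ligand, stood at 45.0, 49.2, 46.8 and 43.5 CPM in the control libraries and 272, 272, 248 and 265 CPM in the TGFb libraries. HES1, a repressor that Notch acts on, stood at 4.22, 4.22, 3.88 and 4.67 CPM in the control libraries and 26.2, 26.6, 23.9 and 24.1 CPM in the TGFb libraries. In both genes each TGFb library was more than 5 times as high as any control library. HEYL, another such repressor, rose from 1.55 ± 0.247 to 4.41 ± 0.412 CPM, whereas DLL4, a ligand of the Delta type, fell from 5.52 ± 0.508 to 1.54 ± 0.519 CPM. Wnt ligands act through beta-catenin and the TCF and LEF factors. Of 18 Wnt transducers and target genes 9 rose and none fell under TMM scaling, 50% in all. Upper quartile scaling gave 9 and 1 and library size alone 8 and 2. The rises included TCF7 (1.81 ± 0.350 to 5.43 ± 2.10 CPM), LEF1 (5.45 ± 0.510 to 10.8 ± 1.49 CPM), TNFRSF19 (11.7 ± 0.533 to 26.0 ± 0.793 CPM) and the cell cycle gene CCND1 (388 ± 14.97 to 773 ± 28.2 CPM). Of 37 ligands, receptors and antagonists of the pathway 11 rose and 7 fell, 48.6% in all. With upper quartile scaling or library size alone 10 rose and 9 fell. WNT7A rose from near 0, at 0.0959, 0.327, 0 and 0.148 CPM in the control libraries and 2.72, 2.22, 2.18 and 2.65 CPM in the TGFb libraries, with a log2 fold change of 4.09 that became 4.87 without control replicate 2. WNT9A rose from 2.73 ± 0.154 to 8.47 ± 0.604 CPM. The secreted antagonist DKK1 stood at 91.2, 79.2, 87.1 and 91.9 CPM in the control libraries and 24.8, 25.1, 22.7 and 24.2 CPM in the TGFb libraries, with every TGFb library far below every control library.

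Hedgehog and growth factor genes gave a mixed account. Of 20 Hedgehog pathway genes 5 rose and 2 fell, 35% against 26% of all genes. GLI2, the main activating transcription factor of the pathway, stood at 15.6, 17.1, 17.4 and 21.7 CPM in the control libraries and 57.4, 53.2, 62.8 and 105 CPM in the TGFb libraries, where TGFb replicate 4 was the highest and the groups did not overlap. GLI1, its target, rose from 5.41 ± 0.870 to 8.69 ± 0.825 CPM, and HHAT, which attaches palmitate to Hedgehog ligands, from 6.51 ± 0.590 to 11.7 ± 0.270 CPM. Among 18 FGF ligands and receptors 3 rose and 1 fell, which is 22.2% against 26% of all genes, and 2 rose and 3 fell with upper quartile scaling or library size alone. FGF18 had the largest change (0.484 ± 0.147 to 2.43 ± 0.400 CPM). Of 17 EGF family ligands and receptors 4 rose and 5 fell, 52.9% in all. HBEGF rose from 53.6 ± 2.69 to 96.9 ± 4.88 CPM, while the neuregulins NRG1 (23.7 ± 3.38 to 11.6 ± 3.47 CPM) and NRG2 (7.95 ± 0.921 to 1.99 ± 0.393 CPM) fell. Of 37 genes of neurotrophin, HGF and other growth factor axes 7 rose and 14 fell, 56.8% in all (median -0.18). HGF, the hepatocyte growth factor made by stellate cells, fell from 2.34 ± 0.334 to 0.474 ± 0.285 CPM, BDNF, a neurotrophin, from 21.5 ± 2.47 to 5.96 ± 0.371 CPM, and the stem cell factor receptor KIT from 5.74 ± 0.739 to 1.70 ± 0.746 CPM. CSF1R, the receptor of macrophage colony-stimulating factor, rose from 1.24 ± 0.145 to 6.03 ± 0.461 CPM.

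Contact and guidance cues were among the lists with most members passing. Ephrins and Eph receptors signal in both directions between touching cells. Of 18 tested 8 rose and 3 fell, 61.1% against 26% of all genes. EPHB2 rose from 53.7 ± 6.90 to 138 ± 3.23 CPM, EPHB1 from 1.59 ± 0.448 to 5.98 ± 0.339 CPM and their ligand EFNB2 from 22.0 ± 0.836 to 44.5 ± 1.15 CPM. In the class of semaphorins, plexins, netrins and slits, which steer axons and vessels, 13 of 46 rose and 17 fell, 65.2% in all. PLXNA2, a semaphorin receptor, rose from 10.4 ± 0.870 to 40.03 ± 1.36 CPM and UNC5B rose as given above. SEMA3D, a secreted semaphorin, fell from 4.13 ± 0.711 to 1.01 ± 0.449 CPM.

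Of 30 forkhead factors 11 rose and 2 fell, 43.3% against 26% of all genes. FOXC2, a factor of mesenchyme and lymphatic vessels, rose from 4.24 ± 0.573 to 16.1 ± 0.512 CPM, and FOXO1, a factor restrained by insulin signalling, from 8.96 ± 0.876 to 20.4 ± 1.63 CPM. Of 39 SOX, GATA, RUNX, TBX, TEAD and related factors 12 rose and 7 fell, 48.7% in all. SNAI1, a repressor of epithelial genes, stood at 4.603, 3.92, 4.38 and 3.30 CPM in the control libraries and 24.2, 24.7, 22.6 and 24.6 CPM in the TGFb libraries. SOX4 stood at 17.7, 12.7, 14.99 and 16.3 CPM in the control libraries and 71.3, 69.2, 65.5 and 68.1 CPM in the TGFb libraries, and GATA3 rose from 0.638 ± 0.285 to 2.49 ± 0.781 CPM. In all 3 of these genes the groups were clear of each other. Of 57 homeobox factors outside the HOX clusters 9 rose and 9 fell, 31.6% in all and closer to the 26% of all genes. Among them were MEOX1, a known TGF-beta responsive factor of fibroblasts (0.669 ± 0.128 to 3.503 ± 0.247 CPM), and PKNOX2 (3.19 ± 1.05 to 13.1 ± 2.37 CPM), both higher.

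HOX genes, which record the position of a cell along the body axis, had 5 of 36 higher and 7 lower, 33.3% against 26% of all genes, and 3 of these changes were at least 2-fold. HOXD10 rose from 4.94 ± 0.552 to 10.8 ± 1.10 CPM. HOXA4 was lower (5.14 ± 0.644 to 2.09 ± 1.05 CPM, adjusted p = 0.0175, edgeR quasi-likelihood test with Benjamini-Hochberg adjustment), a call lost without TGFb replicate 2 alone of the 19 other settings, whose adjusted p ran from 0.00628 to 0.0522. Of 43 basic helix-loop-helix factors 8 rose and 13 fell, 48.8% in all (median -0.22). BHLHE40, a repressor tied to the clock and to hypoxia, rose from 169 ± 1.98 to 515 ± 7.77 CPM, and EPAS1, the hypoxia-inducible factor HIF-2 alpha, stood at 599, 608, 574 and 576 CPM in the control libraries and 224, 222, 211 and 213 CPM in the TGFb libraries. All EPAS1 values with TGFb were below the lowest of the control group. Of 36 nuclear receptors 5 rose and 10 fell, 41.7% in all. NR2F2, known as COUP-TFII, fell from 193 ± 2.40 to 69.6 ± 7.37 CPM, and the thyroid hormone receptor gene THRB from 6.88 ± 2.49 to 1.79 ± 0.368 CPM. The clock genes had 5 of 21 higher and 7 lower, 57.1% in all. PER2 rose from 12.7 ± 1.52 to 25.3 ± 1.63 CPM and NPAS2 fell from 4.09 ± 0.820 to 1.49 ± 0.245 CPM.

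Genes of the serum response factor (SRF) and its actin-sensing coactivators were the list with the largest share of rises. SRF with MRTF factors acts on genes of the contractile apparatus. Of 31 members 17 rose and 1 fell, 58.1% against 26% of all genes (median 0.28). TAGLN, which encodes the actin-binding protein transgelin, stood at 104, 108, 86.2 and 95.0 CPM in the control libraries and 554, 538, 542 and 462 CPM in the TGFb libraries. TPM1, a tropomyosin, stood at 422, 414, 408 and 525 CPM in the control libraries and 1393, 1395, 1346 and 1633 CPM in the TGFb libraries. MYOCD, the smooth muscle coactivator of SRF, rose from 10.4 ± 0.763 to 33.7 ± 3.10 CPM, and the actin-binding CALD1 from 270.3 ± 12.6 to 620.3 ± 45.0 CPM. Control and TGFb libraries did not overlap in any of these 4 genes.

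Of 57 potassium channel genes 11 rose and 9 fell, 35.1% against 26% of all genes. KCNG1, a modifying subunit of voltage-gated channels, rose from 2.12 ± 0.312 to 11.6 ± 0.604 CPM. KCNMB1, the smooth muscle subunit of the calcium-activated BK channel, rose from 0.735 ± 0.161 to 3.25 ± 0.313 CPM, and KCNN3, a channel of small conductance, from 0.427 ± 0.188 to 1.89 ± 0.0333 CPM. Of 51 calcium channel, pump and TRP genes 16 rose and 10 fell, 51% in all. They included the pore subunit of the L-type channel CACNA1C (1.57 ± 0.378 to 6.92 ± 1.57 CPM) upward and the kinase gene CAMK2D (16.0 ± 1.79 to 5.98 ± 0.938 CPM) downward. The list of vasoactive and lipid mediator receptors, which also holds the ligand gene EDN1, had 14 of 60 higher and 18 lower, 53.3% in all. HTR1D, a serotonin receptor, stood at 1.20, 1.31, 1.64 and 1.48 CPM in the control libraries and 8.79, 7.79, 9.53 and 9.15 CPM in the TGFb libraries. RAMP1, a partner of the receptor for the vasodilator CGRP, rose from 0.448 ± 0.189 to 3.13 ± 0.389 CPM, and VIPR1, a receptor of vasoactive intestinal peptide, fell from 4.07 ± 0.448 to 0.398 ± 0.0628 CPM. HTR1D and RAMP1 are of low abundance in counts, and VIPR1 was below 0.5 CPM on average with TGFb.

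Of 41 genes of cyclic nucleotide signalling 6 rose and 8 fell, 34.1% against 26% of all genes. Both phosphodiesterases named by size of change fell, PDE7B from 10.3 ± 1.48 to 2.01 ± 0.261 CPM and PDE4B from 17.7 ± 1.44 to 5.91 ± 0.463 CPM, and these enzymes break down cAMP. AKAP12, a scaffold for the cAMP-dependent kinase, rose from 299 ± 11.9 to 892 ± 18.2 CPM, and NPR3, a clearance receptor of natriuretic peptides, from 0.708 ± 0.357 to 3.05 ± 0.308 CPM. G protein and RGS regulators, which end G protein signals, fell in 9 of 25 cases and rose in 3, 48% in all (median -0.22). GPRC5A, an orphan receptor induced by retinoic acid, fell from 125 ± 7.23 to 34.6 ± 2.31 CPM and RGS7BP from 2.96 ± 0.507 to 0.957 ± 0.0751 CPM, while RGS3 rose from 33.0 ± 2.15 to 93.0 ± 1.56 CPM.

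Cell junction genes moved in opposite directions within one structure. Of 36 classical cadherin, catenin and desmosome genes 10 rose and 8 fell, 50% against 26% of all genes. With upper quartile scaling or library size alone 8 rose and 8 fell. DSP, which encodes the desmosomal linker desmoplakin, stood at 23.5, 22.6, 23.3 and 24.3 CPM in the control libraries and 131, 143, 129.7 and 128 CPM in the TGFb libraries. PKP3, a plakophilin of the same junction, fell from 3.69 ± 0.181 to 0.872 ± 0.125 CPM, as did PPL given above. PCDH1, a protocadherin, rose from 4.51 ± 0.763 to 23.5 ± 5.37 CPM, and CDH5, the cadherin of endothelium, fell from 1.87 ± 0.273 to 0.264 ± 0.182 CPM. Of 32 connexins, claudins and tight junction proteins 6 rose and 9 fell, 46.9% in all. CLDN1 fell from 45.8 ± 1.39 to 18.9 ± 1.37 CPM. CLDN11 stood at 556, 151, 169.6 and 171 CPM in the control libraries and 92.0, 37.7, 96.1 and 99.04 CPM in the TGFb libraries, a fall whose size rests on control replicate 1: without that library the log2 fold change of -1.69 became -1.02. Its call (adjusted p = 0.0469, edgeR quasi-likelihood test with Benjamini-Hochberg adjustment) was lost under 10 of the 19 other settings, whose adjusted p ran from 0.0106 to 0.151. F11R, which encodes the junctional adhesion molecule JAM-A, stood at 68.8, 61.6, 64.7 and 63.4 CPM in the control libraries and 13.1, 49.2, 14.7 and 13.5 CPM in the TGFb libraries. TGFb replicate 2 lay near the control group, and without it the log2 fold change of -1.51 became -2.23. That call was lost under 9 of the 19 other settings (adjusted p from 0.00113 to 0.102).

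Carbohydrate and lipid genes of stellate cells were altered in named members. Of 54 glycosaminoglycan genes 15 rose and 9 fell, 44.4% in all, with XYLT1 and the heparan sulfotransferase gene HS3ST3A1 (1.19 ± 0.169 to 4.24 ± 1.15 CPM) higher. CEMIP, which encodes a protein that breaks down hyaluronan, stood at 148, 175, 166 and 186 CPM in the control libraries and 29.1, 42.0, 27.4 and 33.0 CPM in the TGFb libraries, so that even the highest TGFb library was under the lowest control library by more than 100 CPM. Retinoid and lipid droplet genes, the storage programme of resting stellate cells, fell in 12 of 37 cases and rose in 4, 43.2% in all (median -0.21). PLIN2, a coat protein of lipid droplets, fell from 39.9 ± 2.79 to 20.7 ± 1.21 CPM, DGAT2, which makes triglyceride, from 15.1 ± 2.19 to 7.41 ± 0.696 CPM, and ACSL5, which activates fatty acids, from 20.9 ± 1.69 to 8.96 ± 0.863 CPM. STRA6, the cell surface receptor for retinol binding protein, went against them at 0.320, 0.265, 0.181 and 0.119 CPM in the control libraries and 1.40, 2.22, 2.20 and 3.13 CPM in the TGFb libraries. Of 35 sphingolipid genes 5 rose and 6 fell, 31.4% against 26% of all genes. SPHK1, which makes sphingosine 1-phosphate, rose from 65.1 ± 7.32 to 194 ± 5.76 CPM. UGCG, the first enzyme of glycosphingolipid synthesis, fell from 272 ± 2.18 to 131 ± 8.28 CPM, as did SPTLC3 of the serine palmitoyltransferase (3.99 ± 0.299 to 1.49 ± 0.288 CPM). Among 29 polyamine, arginine and creatine genes 9 rose and 6 fell, 51.7% in all. AZIN2, an activator of polyamine synthesis, rose from 5.53 ± 1.09 to 22.4 ± 2.99 CPM.

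Regulators of chromatin and splicing were closer to the background. Of 88 DNA and histone modifying enzymes 17 rose and 10 fell, 30.7% in all, and the order became 11 and 12 with library size alone. KDM6B, a demethylase of a repressive histone mark, rose from 62.0 ± 9.26 to 150.3 ± 4.69 CPM, and JARID2, a part of Polycomb repressive complex 2, from 30.6 ± 2.40 to 62.9 ± 1.74 CPM. Splicing regulators passed in 16.5% of 85 cases, under the 26% of all genes, with 11 higher and 3 lower. That direction flipped to 2 and 7 with library size alone and was 5 and 5 with upper quartile scaling. TARDBP, which encodes the RNA-binding protein TDP-43, was at 55.3, 46.4, 50.6 and 48.6 CPM in the control libraries and 103, 67.1, 211 and 52.9 CPM in the TGFb libraries. Its groups overlapped, and the call (adjusted p = 0.0448, edgeR quasi-likelihood test with Benjamini-Hochberg adjustment) was lost under 14 of the 19 other settings, whose adjusted p ran from 0.00272 to 0.105. Without TGFb replicate 3 its log2 fold change of 1.11 became 0.57. Of 36 tetraspanins and syndecans 11 rose and 9 fell, 55.6% in all, or 9 and 10 with library size alone. TSPAN12 rose from 1.90 ± 0.341 to 9.10 ± 0.873 CPM.

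Of 52 named long non-coding and microRNA host genes 14 rose and 11 fell, 48.1% against 26% of all genes. Outside that list the largest rises of at least 2 CPM were those of ENSG00000250274 (0.142 ± 0.145 to 3.54 ± 0.330 CPM), whose log2 fold change of 4.62 became 5.48 without control replicate 3, and of FOXP1-DT, transcribed away from FOXP1 (0.147 ± 0.109 to 2.06 ± 0.687 CPM). The largest falls were those of LINC00707 (2.502 ± 0.933 to 0.414 ± 0.206 CPM) and AC010457 (2.43 ± 0.844 to 0.406 ± 0.126 CPM). ENSG00000250274 and AC010457 overlap other genes on the opposite strand. Among the microRNA host genes named for their size of change, MIR34AHG stood at 0.0639, 18.5, 33.6 and 2.15 CPM in the control libraries and 0.5002, 0.598, 0.230 and 0.231 CPM in the TGFb libraries, so its control libraries spanned the TGFb range, and the call was lost under 12 of the 19 other settings (adjusted p from 0.00276 to 0.622). MIR155HG (9.16, 0.825, 7.34 and 11.5 CPM in the control libraries and 2.68, 0.768, 0.153 and 0.192 CPM in the TGFb libraries) and CARMN (0.384, 0.498, 0.752 and 0.459 CPM in the control libraries and 3.92, 3.55, 0.249 and 5.29 CPM in the TGFb libraries), a non-coding gene of smooth muscle, overlapped between groups as well. The call of MIR155HG was lost under 3 of the 19 other settings (adjusted p from 0.000363 to 0.201) and that of CARMN with limma-voom alone (4.35e-05 to 0.246).

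Single transcripts of a gene also changed their share of its counts. A share is the count of a transcript over the sum for all transcripts of that gene in a library, estimated by the authors' software from the same fragments. It is called changed where the edgeR test of differential transcript usage gave an adjusted p under 0.05, the mean share moved by at least 10 percentage points, and the libraries of the groups did not overlap. Of 70977 transcripts tested 0.318% were called, 226 in all (120 with a higher share and 106 with a lower), and of 12322 genes with 2 or more transcripts tested 1.66% held at least 1, which is 204 genes. The shares of the groups did not overlap for 4.06% of transcripts. Shares vary a good deal between replicates: among 13591 transcripts with a mean share of 20 to 80% in control, the median SD over the 4 control libraries was 16.6 points. The called changes had a median size of 24.4 points and reached 92.1, with 39 of at least 50 points. In 66 called transcripts the SD was 20 points or more in at least 1 group. Of the 204 genes 96 also passed the gene test (47 higher and 49 lower). Over all genes tested 26% did, but these include genes outside the 12322, and the share that passed rose with level. The share over the 12322 was not computed. Of PMEPA1, SMAD7 and FN1, no transcript was called.

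In 71 genes, 0.576% of those tested, a called transcript led in one group and not in the other. Both leading transcripts were protein-coding in 45 of these genes, with different coding sequences in 32 and a different end of the first exon in 26. The total of 42 of the 71 genes did not pass the gene test. Of the 226 called transcripts 5, in 4 genes, were called under all 18 other settings: MCC-201, FSTL3-206, IL15RA-218, IL15RA-204 and ENST00000654862 of NR2F1-AS1. Those settings include merges of transcripts, which cannot show an exchange within a merged unit. Transcript names and positions are those of GENCODE release 29 on GRCh38, matched by identifier.

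MCC, a candidate tumour suppressor first found as mutated in colorectal cancer, kept its total count and exchanged its leading transcript. The gene stood at 20.6 ± 1.21 CPM in control and 21.6 ± 1.97 CPM with TGFb (adjusted p = 0.587, edgeR quasi-likelihood test with Benjamini-Hochberg adjustment). MCC-202, whose coding sequence is the longer (ENST00000408903, chr5:113027302-113488830), held 98.2, 97.9, 95.9 and 93.0% in the control libraries and 0.2502, 25.1, 0 and 0.767% in the TGFb libraries. MCC-201 (ENST00000302475, chr5:113022099-113294949) held 0.613, 0.911, 0 and 0% in the control libraries and 96.5, 73.6, 97.4 and 90.3% in the TGFb libraries. All 4 control libraries were thus almost wholly MCC-202, and 3 of the 4 TGFb libraries almost wholly MCC-201, with TGFb replicate 2 between them but on the same side. The changes were -89.8 points (adjusted p = 0.000287, edgeR transcript usage test) and 89.1 points (adjusted p = 8.16e-07). The call of MCC-202 was lost when only the 8 control and TGFb libraries were fitted (adjusted p = 0.103). The first bases of the transcripts lie 193881 bases apart, and the encoded proteins differ in their start, with 1019 codons in MCC-202 and 829 in MCC-201. The first bases of each coding sequence are shown because the exchange replaces one by the other. The start codon is in capitals, MCC-202 lying at chr5:113488355-113488414 and MCC-201 at chr5:113294329-113294385, both on the minus strand.
MCC-202: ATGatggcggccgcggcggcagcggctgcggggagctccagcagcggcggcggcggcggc
MCC-201: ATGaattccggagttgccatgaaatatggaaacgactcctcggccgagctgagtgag

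VCAN, which encodes the large matrix proteoglycan versican, rose as a gene, and its transcript VCAN-201 gained share. Versican forms differ in which long exons, coding for chondroitin sulfate attachment regions, they keep. The gene stood at 16.2, 17.6, 15.7 and 18.1 CPM in the control libraries and 143, 144, 129 and 124 CPM in the TGFb libraries. VCAN-201, which keeps both long exons, held 1.19, 8.21, 0.669 and 0.327% in the control libraries and 44.4, 43.5, 40.5 and 31.6% in the TGFb libraries. Its share rose by 37.4 points in libraries that also held more VCAN RNA, from 116 counts over the 4 control libraries to 12238 over the 4 TGFb libraries (adjusted p = 5.83e-08, edgeR transcript usage test). When transcripts with the same end of the first exon were merged, the change was 7.12 points and not called. That merge sums VCAN-201 with VCAN-203, so it cannot show an exchange between them. VCAN-203, which leaves out the first long exon of 2961 coding bases and keeps the next of 5262, held 47.9, 8.56, 43.3 and 30.6% in the control libraries and 5.70, 5.32, 10.9 and 15.3% in the TGFb libraries. Control replicate 2 fell within the TGFb range, so VCAN-203 was not called, and without that library it was (a change of -31.3 points, adjusted p = 3.71e-06). The encoded proteins have 3396 codons for VCAN-201 and 2409 for VCAN-203. The junction that tells them apart is shown in spliced form, with the last 30 bases of the shared exon (chr5:83512367-83512396, plus strand) in lower case and the first 30 bases of the next exon in capitals. That next exon starts at chr5:83519349-83519378 in VCAN-201 and at chr5:83537007-83537036 in VCAN-203.
VCAN-201: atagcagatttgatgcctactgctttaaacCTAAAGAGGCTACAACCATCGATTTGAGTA
VCAN-203: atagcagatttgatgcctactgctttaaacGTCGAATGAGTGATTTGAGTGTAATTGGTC

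NET1, a guanine nucleotide exchange factor, rose from 110.4 ± 12.3 to 249 ± 5.63 CPM and moved toward one of its start sites. NET1-201 (ENST00000355029, chr10:5412551-5458463) held 36.0, 25.3, 44.1 and 31.9% in the control libraries and 11.5, 5.44, 7.503 and 11.8% in the TGFb libraries. NET1-202 (ENST00000380359, chr10:5446611-5458463) held 63.4, 74.2, 54.8 and 67.6% in the control libraries and 85.0, 94.0, 91.9 and 85.3% in the TGFb libraries. The fall of NET1-201 by 25.2 points was called (adjusted p = 2.26e-06, edgeR transcript usage test), and the counterpart rise of NET1-202 was not (adjusted p = 0.538), although its groups did not overlap. On the logit of the share NET1-201 lost its call (adjusted p = 0.222), and with limma diffSplice on voom values NET1-202 was called (3.38e-06). In counts, NET1-201 went from 9713 to 5050 over 4 libraries and NET1-202 from 18831 to 49491. Their first bases lie 34060 bases apart, with 596 codons in NET1-201 and 542 in NET1-202, and their coding sequences begin differently. Start codons are in capitals, at chr10:5412693-5412752 for NET1-201 and chr10:5446766-5446825 for NET1-202, both on the plus strand.
NET1-201: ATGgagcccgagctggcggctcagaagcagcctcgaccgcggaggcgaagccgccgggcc
NET1-202: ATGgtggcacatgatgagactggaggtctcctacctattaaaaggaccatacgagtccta

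**Figure D4:**
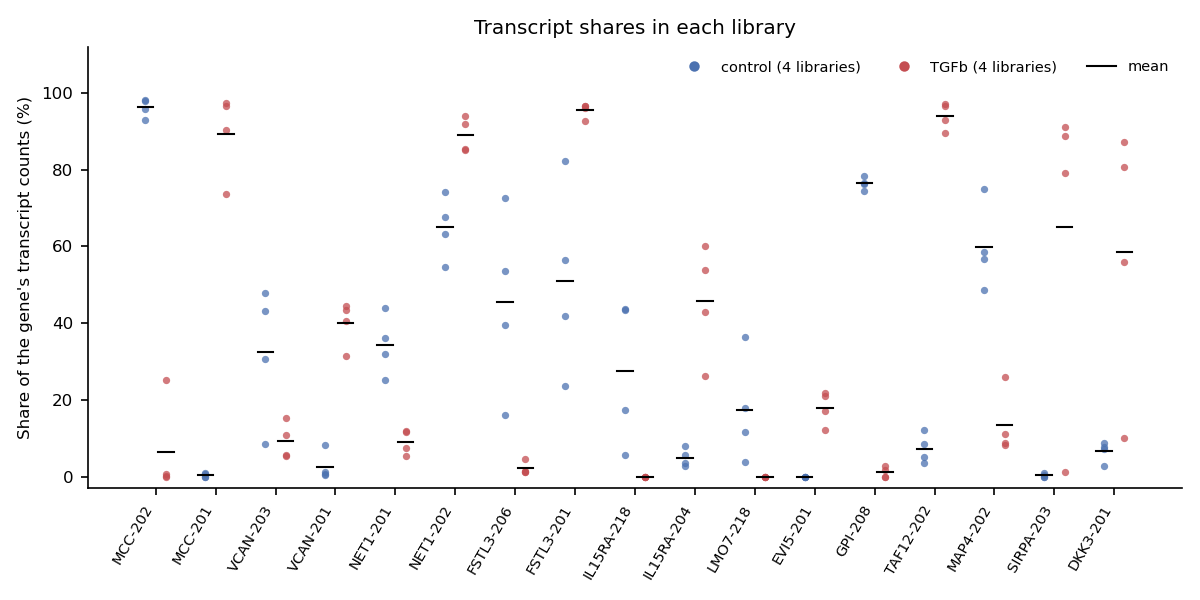
Share of the gene's transcript counts (y axis, percent) for 17 transcripts in each library, with control in blue, TGFb in red and a bar at the mean of 4 libraries. MCC-202 and MCC-201 trade places, with MCC-202 at 93.0% or more in every control library, while SIRPA-203 and DKK3-201 each have 1 TGFb library near the control group.

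In 4 further genes a transcript lost or gained most of its share. FSTL3, the activin antagonist that rose above, held a short transcript in control: FSTL3-206, annotated with 40 codons, had 53.6, 39.7, 72.5 and 16.0% in the control libraries and 1.50, 1.30, 4.72 and 1.22% in the TGFb libraries. Its counts went from 1074 over the 4 control libraries to 272 over the 4 TGFb libraries, while the gene total rose. The full transcript FSTL3-201, with 263 codons, went from 51.1 ± 24.7% to 95.6 ± 1.86% and was not called. IL15RA, the alpha chain of the interleukin-15 receptor, did not pass as a gene (adjusted p = 0.266, edgeR quasi-likelihood test with Benjamini-Hochberg adjustment). Its transcript IL15RA-218, which has no coding sequence, held 43.6, 17.4, 5.62 and 43.4% in the control libraries and 0, 0, 0 and 0% in the TGFb libraries, and IL15RA-204, with 267 codons, held 3.63, 5.52, 2.70 and 8.02% in the control libraries and 26.3, 60.2, 53.8 and 43.0% in the TGFb libraries. The non-coding form had 1111 counts over the control libraries and none over the TGFb libraries. LMO7, a LIM domain protein of cell junctions, lost LMO7-218 (11.7, 36.4, 17.9 and 3.94% in the control libraries and 0, 0, 0 and 0% in the TGFb libraries). Its change of -17.5 points became -11.2 without control replicate 2. EVI5, a protein that binds RAB11 on recycling membranes, gained EVI5-201, with 0 counts in control and shares of 17.2, 12.1, 21.1 and 21.8% with TGFb. When EVI5-201 was merged with transcripts that have the same end of the first exon, their summed share changed by 0.380 points and was not called.

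Some of the largest exchanges took place between transcripts that code for the same protein. TAF12-202, of a subunit of the general factor TFIID, held 5.20, 8.40, 12.1 and 3.62% in the control libraries and 97.1, 89.5, 96.7 and 92.9% in the TGFb libraries. RPS6-203, of a protein of the small ribosomal subunit, held 76.5, 76.8, 78.0 and 74.9% in the control libraries and 1.39, 6.62, 1.35 and 0.991% in the TGFb libraries. Both sets of libraries are far apart, and neither gene passed the gene test (adjusted p = 0.779 and 0.452, edgeR quasi-likelihood test with Benjamini-Hochberg adjustment). SIRPA-203, of the receptor for CD47, went from 0.320 ± 0.437% to 65.1 ± 42.8%, but TGFb replicate 1 had 1.28% and the other 3 had 79.2 to 91.1%. DKK3-201, of a secreted protein of the Dickkopf family, went from 6.58 ± 2.67% to 58.5 ± 34.96%, with TGFb replicate 3 at 10.1%. SERPINB2-205 went from 56.2 ± 11.05% to 0.615 ± 0.313%. When transcripts with the same coding exons were merged, the changes were 14.7 points for TAF12-202, -13.5 for RPS6-203, 3.18 for SIRPA-203, 0.515 for DKK3-201 and 0.0135 for SERPINB2-205, and none was called. The call of SIRPA-203 was also lost with limma diffSplice on voom values (adjusted p = 0.789), on the logit of the share (0.516) and when merged by first exon end (61.6 points, 0.407). On the logit of the share the calls of RPS6-203 (adjusted p = 0.378) and DKK3-201 (0.662) were lost too.

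Other large exchanges did change the coding sequence. GPI-208, of the glycolytic enzyme glucose-6-phosphate isomerase, held 78.4, 76.4, 74.5 and 76.5% in the control libraries and 2.73, 1.82, 0 and 0% in the TGFb libraries, and the gene total did not pass (adjusted p = 0.0820, edgeR quasi-likelihood test with Benjamini-Hochberg adjustment). The call of GPI-208 was lost on the logit of the share (adjusted p = 0.129). In the TGFb group the lead went to GPI-201, from 9.21% to 53.5%. PUM2-202, of an RNA-binding repressor of translation, went from 77.8 ± 10.9% to 3.39 ± 3.12%, with control replicate 3 lowest of its group at 61.5%. PLD1-202, of phospholipase D1, held 0.933, 9.52, 1.19 and 24.8% in the control libraries and 69.9, 98.7, 89.8 and 92.4% in the TGFb libraries. PLD1 fell as a gene, from 21.1 ± 1.02 to 7.02 ± 0.876 CPM. MAP4-202, of a protein that binds microtubules, went from 59.8 ± 11.002% to 13.5 ± 8.36% close to the threshold (adjusted p = 0.0494, edgeR transcript usage test). PUM2-202 lost its call under 3 of the 18 other settings, PLD1-202 under 6 and MAP4-202 under 9. For PUM2-202 these include the merge by coding sequence, where the change was -67.9 points (adjusted p = 0.0990, edgeR transcript usage test). For each of these transcripts the settings include the merge by first exon end. That merge sums the leading transcripts of both groups and so cannot show their exchange.

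Mitochondrially encoded RNA took 10.8, 10.0, 10.8 and 11.3% of counts in the control libraries and 8.97, 9.46, 8.77 and 9.002% in the TGFb libraries, without overlap. The exact permutation test gave p = 0.0286, two-sided, which is the smallest that 4 against 4 libraries allow, and 0.0571 adjusted over the 6 classes tested. Pseudogenes went from 1.38 ± 0.00851% to 1.22 ± 0.00779% with the same p values by that exact test. Long non-coding genes went from 1.56 ± 0.170% to 1.17 ± 0.0486%, again with the same exact p. That difference of -0.394 points shrank to -0.0308 without 4 genes of the chromosome 21 short arm that stood above 100 CPM in control. Within protein-coding genes, transcripts with a retained intron held 8.63 ± 0.606% and 8.34 ± 0.368% (exact permutation p = 0.400), and those marked for nonsense-mediated decay 2.65 ± 0.108% and 2.53 ± 0.162% (exact permutation p = 0.257). Those annotated as processed without a coding sequence held 1.94 ± 0.123% and 1.87 ± 0.0948% (exact permutation p = 0.371). With 6 classes, an adjusted p under 0.05 would need at least 4 of them at that smallest p, so the adjusted values say little.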

How the data were processed

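Polyadenylated RNA of LX2 cells was sequenced as read pairs from a strand-specific TruSeq mRNA library, per the labels' protocols. The authors deposited estimated counts per gene and per transcript for 60612 genes and 229420 transcripts, and a table of FPKM values. The submitters' processing notes name cutadapt, HISAT2, StringTie and edgeR, without versions or roles, and the build GRCh38. The annotation release, the use of strand, and how reads shared by overlapping genes were treated are details not given in the sources used here. Whole-number estimated counts, as deposited, served every main result, while the deposited FPKM values served as an alternative and for levels per length.

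Low genes were removed with filterByExpr (at least 10 counts, and 15 in total), counts were scaled by TMM and tested with the edgeR 4.0.16 quasi-likelihood test (R 4.3.3, legacy = FALSE, robust) over all 12 libraries, with 9 residual degrees of freedom and Benjamini-Hochberg adjustment. Transcript shares were tested with diffSpliceDGE of edgeR. Class shares were compared by an exact permutation test. Alternatives used limma 3.58.1, including voom, and DESeq2 1.42.0, other scalings and filters, log2(FPKM + 1) and log2(FPKM + 0.1), a replicate block, each library left out in turn, and, chosen after seeing the data, merged transcripts and leaving out chromosome 21 short-arm genes. The scripts were tested on simulated data. Of the transcripts, 204906 were matched to GENCODE release 29, holding 98.22% of transcript counts, and the printed sequences were read from the transcripts of that release.

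CPM values are scaled by TMM and given as mean ± SD of 4 libraries, and n is 4 in each group. The SE of a log2 fold change is its size over the square root of F. Replicates were not copies of one library: over 12 pairs the chi-square of their gene counts was 31.1 to 65.6 times its degrees of freedom. Counts cover sampling of fragments without molecular identifiers. Members and the 37 lists, which hold 1659 genes (1655 matched), were chosen with earlier results of these data known. Genes were named by rule: PMEPA1, SMAD7 and FN1, the 10 largest rises and falls by log2 fold change (at least 5 CPM in the higher group, groups without overlap), the 8 largest gains and losses in CPM among genes that passed the test, the 5 largest non-coding rises and falls (at least 2 CPM), and up to 4 members of each list with the largest change (at least 1 CPM), each shortened from the bottom. Some genes that this rule names, and 1 list, are not reported here. Transcripts named were the 15 with the largest change in share in genes of at least 10 CPM, the called ones of genes with known mesenchymal switches, and the 10 most abundant genes whose leading transcript differs. MCC-201, NET1-201, NET1-202, VCAN-203, FSTL3-206, FSTL3-201, IL15RA-218, IL15RA-204 and EVI5-201 were chosen after their values were seen. Over the 140 genes named for their change, the adjusted p of the edgeR quasi-likelihood test ran from 5.77e-16 to 0.0483 and was under 0.001 in 125.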

Additional observations from a re-analysis of the deposited data

Results flagged for a closer look

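In each group of 4 libraries the highest or lowest value of each named gene and transcript was set against the other 3, and 29 of 334 groups had a library that stood apart by Dixon's criterion, where chance gives about 1 in 20. No cause was tested. Among genes, the TGFb libraries that stood apart were replicate 1 for EGR2 (43.4 CPM, the others 37.7 to 38.4), KIT (2.80, the others 1.17 to 1.45) and EPHB2 (142.5, the others 135.6 to 136.7), and replicate 2 for CLDN11 (37.7, the others 92.0 to 99.04) and F11R (49.2, the others 13.1 to 14.7). Replicate 3 stood apart for MT-CO1 (23507, the others 23973 to 24061), AZIN2 (26.8, the others 20.5 to 21.1) and JARID2 (65.5, the others 61.8 to 62.2). Replicate 4 stood apart for UNC5B (23.4, the others 24.96 to 25.3), HHIP (6.67, the others 4.65 to 4.90), EVI2B (1.67, the others 1.0004 to 1.11), TAGLN (462, the others 538 to 554), TPM1 (1633, the others 1346 to 1395) and KCNMB1 (3.71, the others 3.06 to 3.17). In control, replicate 1 stood apart for RGS3 (36.2, the others 31.6 to 32.3) and CLDN11 (556, the others 151 to 171), and replicate 2 for HBEGF (57.6, the others 52.1 to 52.5) and PKNOX2 (1.63, the others 3.53 to 3.82). Control replicate 4 stood apart for NRG2 (6.58, the others 8.29 to 8.50), TPM1 (525, the others 408 to 422) and UGCG (269, the others 273 to 274).

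Shares of transcripts with a library apart were those of MCC-202 in TGFb replicate 2 (25.1%, the others 0 to 0.767%), RPS6-203 in TGFb replicate 2 (6.62%, the others 0.991 to 1.39%) and SIRPA-203 in TGFb replicate 1 (1.28%, the others 79.2 to 91.1%). TGFb replicate 3 stood apart for MAP4-202 (25.9%, the others 8.13 to 11.1%), FSTL3-206 (4.72%, the others 1.22 to 1.50%) and FSTL3-201 (92.8%, the others 96.1 to 96.7%). In control, PUM2-202 was at 61.5% in replicate 3 (the others 82.2 to 84.6%) and VCAN-201 at 8.21% in replicate 2 (the others 0.327 to 1.19%). CLDN11 lost its call without either library that stood apart (log2 fold change -1.02 without control replicate 1 and -1.45 without TGFb replicate 2, against -1.69). F11R kept its call without TGFb replicate 2, at -2.23 against -1.51.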

How the results depend on the processing

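The number of genes that rose and the number that fell kept within 1.5 times the main count under the 19 other settings. Of 2657 values of the 140 named genes under other settings, none changed direction and 51, in 8 genes, lost the call. Counts of transcripts were less stable. Instead of 226 transcripts, 204 genes and 71 genes with another leading transcript, a test on the logit of the share gave 27, 20 and 10, a mean count of at least 50 gave 139, 128 and 36, and a change of at least 20 points gave 135 transcripts and 118 genes. limma diffSplice on voom values gave 118 genes, merging by first exon end 141 transcripts and 125 genes, and fitting control and TGFb libraries only gave 47 genes with another leading transcript. Leaving out 1 library, which leaves 3 to be clear of 4, gave 345 to 404 transcripts, 304 to 357 genes and 108 to 139 leading transcripts. Merging by first exon end turned the change of PLD1-202 to -0.727 points, MAP4-202 to 5.96, SERPINB2-205 to 0.00952 and VCAN-203 to 7.12, and merging by coding sequence turned SERPINB2-205 to 0.0135, where the share of a merged unit is the sum over its transcripts (both merges were chosen after seeing the data). In FPKM the class differences were -1.02 points for long non-coding genes, -0.210 for pseudogenes and -2.48 for mitochondrial RNA, where an FPKM share weighs genes by length. The exact permutation p in FPKM was 0.0857 for mitochondrial RNA and 0.0286 for long non-coding genes and pseudogenes. In counts the difference was -0.0308 for long non-coding genes without 4 chromosome 21 short-arm genes, a setting also chosen after seeing the data. The filter and the change of 20 points leave fewer transcripts to call, and for the other settings the cause was not tested.

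The replicate block, with the replicate number in the design, gave 2723 rises and 2593 falls, 186 transcripts, 165 genes and 61 leading transcripts. For the 3 gene classes the exact sign-flip p over the 4 pairs was 0.125, the smallest it can give. Same-numbered libraries deviated together little (correlations 0.0452, 0.000289, 0.0192 and 0.0168 for replicates 1 to 4, each under 0.1). Not every library had its highest correlation with its own number. Whether libraries of both groups share a structure other than the number, such as the split of replicates given above for ENSG00000281181, was not tested. F11R and TARDBP among the named genes lost their call under the block (adjusted p = 0.0721 and 0.0661), as PLD1-202 and MAP4-202 did (0.0894 and 0.143).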
